A study of Mus musculus with 6 samples.

Results

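The 7 genes described here, Pdap1, Prmt1, Stip1, Prrc2a, Acads, Atic and Csnk2a1, carry canonical RNA G-quadruplex motifs in their 3′ untranslated regions (3′ UTRs). They were picked by name on these measurements, for reverse transcription stops in cells that were more frequent in K+ than in Li+ at those motifs. All rows of the tables under these gene symbols were taken, which gave 25 of the 5538 listed sites and 7 of 2643 gene entries. Of these 25 sites, 11 are canonical 3′ UTR motifs, 2 overlap such a motif, and 12 lie elsewhere in the same transcripts. The K+ and Li+ shares at the 11 canonical 3′ UTR motifs chose the genes, so they are given as a description with no test. The working name of the group speaks of protection across days, and the deposited values do not bear that out for day 0.

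The cells were a clonal mouse embryonic stem cell line, TsixTST/+, labelled 129S1/CastEiJ x 129S1 with the genotype WT. It was kept on inactivated feeders with leukemia inhibitory factor. For differentiation, cells freed of feeders formed embryoid bodies without that factor, in suspension to day 3 and attached to gelatin after it. The groups were day 0, day 3 and day 7, with 2 samples each, and nothing says whether the replicates came from separate cultures, so the errors measure the spread between these samples only. All samples came from cells exposed to dimethyl sulfate (DMS) according to the treatment protocol, although the treatment field reads None. Chromatin-bound polyadenylated RNA was fragmented and reverse transcribed once with K+ and once with Li+. Each day 7 sample carries a second pair of K+ and Li+ counts that the file calls in vitro, and the labels do not describe that preparation.

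A G-quadruplex is a stack of planar guanine tetrads formed by 4 runs of guanines on 1 strand, held by a central cation. K+ stabilises the stack and makes it a barrier to reverse transcriptase, while Li+ does not. DMS methylates the N7 position of guanine when that position is not bonded within a tetrad, so a motif that was unfolded in the cell is modified and cannot fold again in the K+ reaction. A stop share, the percentage of reads over a motif that end at its 3′ side, is therefore expected to be higher in K+ than in Li+ where the guanines were protected.

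Motifs of 5 of the 7 genes are printed to show their guanine runs and loops. How runs and loops relate to the in vitro or in-cell readout was not tested. Each is the transcript strand, 5′ to 3′, copied from the deposited tables, with runs of 3 or more G in capitals. Positions are 1-based on GRCm38.p6 (mm10). The Csnk2a1 motif of 19 bases is the first part of the one shown, and the longer Stip1 motif, which extends the one shown by 5 bases, is not printed.

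Prmt1, chr7:44976835-44976862, minus strand: GGGGGGatGGGcttGGGGGatGGGGGGG

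Stip1, chr19:7020800-7020825, minus strand: GGGGcagtGGGtgcatacGGGGaGGG

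Prrc2a, chr17:35149172-35149196, minus strand: GGGGtGGGtGGGGaGGGGttgtGGG

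Atic, chr1:71579226-71579253, plus strand: GGGGGtcaGGGGGaagtGGGGGtGGGGG

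Csnk2a1, chr2:152281489-152281513, plus strand: GGGtGGGGGGtaGGGaGGGtcaGGG

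The 11 motifs measured 19 to 31 bases, with a median of 26, against a median of 23 over the other 589 canonical 3′ UTR motifs. Guanine made up 61.5% to 78.9% of their bases, with a median of 76% against 72% in the other motifs. A run of 5 or more G was present in 8 of the 11 and in 51.8% of the 589. In 4 of the 11, every G run was 4 or longer, which held for 8.15% of the 589. A loop of 1 base was present in 9 of the 11 and in 77.6% of the others. All 11 motifs had 20 or more reads in each of the 12 in-cell libraries, and among the 96 other motifs with that depth these shares were 45.8% for a run of 5 or more G, 7.29% for every run of 4 or more and 85.4% for a loop of 1 base. The motifs of a gene overlap, so these counts do not stand for 11 independent sequences, and their differences from the other motifs were not tested.

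Position near the gene end was a further feature, though not of all 7 genes. Reference gene bounds for the same build place the canonical motif of Prmt1 80 bases from the 3′ end of the gene, those of Prrc2a 96 and 103 bases, and those of Stip1 99 and 104 bases. Atic lay at 150 bases and Acads at 158. Csnk2a1, at 343 and 349 bases, was near the median of 372 over the 96 other motifs of like depth, and Pdap1 was farthest, at 1361 and 1367 bases. Within 200 bases of the gene end lay 7 of the 11 motifs, against 19.5% of the other 589. The 7 include both overlapping motifs of Prrc2a and of Stip1. Depth moved with this measure: among the 96 other motifs of that depth, 33.3% lay that near. Its part in the difference was not tested.

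The library labels bear on the comparisons of K+ with Li+ that follow. In day 0 replicate 2 the K+ share was above the Li+ share at 27 of 163 other canonical 3′ UTR sites (16.6%), against 128 of 282 (45.4%) in day 0 replicate 1. In the day 3 and day 7 samples the same share ran from 56.8% to 87.8%, and it was 100% in both in vitro tables. The shares of day 0 replicate 2 thus ran mostly against its cation labels, and day 0 replicate 1 was below 50% as well. Whether the columns of replicate 2 are exchanged cannot be settled from the files. The counts for day 0 and the RNA amounts of day 7 against day 0 are also given without it. The main RNA amounts sum both cations, so an exchange of columns would leave them unchanged. Over all other sites the median log2 odds ratio of stops, K+ over Li+, was -0.28 and -0.48 on day 0, 1.32 and 0.23 on day 3, then 0.57 and -0.22 on day 7. Outside ribosomal and mitochondrial RNA the in-cell libraries held between 87473 and 1536411 listed reads, and the day 3 replicate 1 K+ library was the smallest. Of the early differentiation markers 6 of the 6 measured rose from day 0 to day 7, and 4 of the 7 measured pluripotency markers fell. Of all 2389 genes tested, 364 rose and 75 fell. The early markers held 26 and 0 summed reads in the day 0 samples. The other pluripotency markers were not called, with Sall4 (3.70 ± 1.19, log2, SE) and Lin28a (0.80 ± 0.31) above 0 and Tdgf1 (-1.05 ± 0.33) below.

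On day 3 the K+ share was above the Li+ share in both replicates at 11 of 11 canonical 3′ UTR motifs of the 7 genes, on day 7 at 10 of 11, and on day 0 at 0 of 11. The same count over all sites with 20 reads in both cations of both replicates came to 48.2% on day 3, 30.6% on day 7 and 13.7% on day 0. Over the other canonical 3′ UTR motifs it came to 77.1%, 53.0% and 5.13%. Both K+ shares lay above both Li+ shares at 10 of the 11 motifs on day 3 and at 8 on day 7, against 37.4% and 20.5% of all such sites, and at 0 on day 0, against 8.5%. Over the other canonical 3′ UTR motifs this stricter count came to 67.6% on day 3, 39.2% on day 7 and 2.56% on day 0. On day 0, replicate 1 alone had K+ above Li+ at 6 of the 11 and replicate 2 alone at 1. These counts restate what chose the genes.

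The motif of Prmt1, the main enzyme that places asymmetric dimethyl marks on arginine, was the most deeply read of the 11. Its K+ share was 4.55% and 3.63% on day 0, 19.2% and 8.30% on day 3, then 15.3% and 7.10% on day 7. The Li+ share was 5.36% and 10.9% on day 0, 4.14% and 3.60% on day 3, then 8.72% and 5.18% on day 7. Day 3 replicate 1 was the highest K+ value, and on day 7 the K+ range overlapped the Li+ range. The mean log2 odds ratio was 1.86 ± 0.85 (SD, n = 2) on day 3, 0.70 ± 0.31 on day 7 and -0.96 ± 1.01 on day 0. Its day 7 level ranked 53 of 107 canonical 3′ UTR motifs, in the middle of that group.

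Stip1 encodes the co-chaperone that bridges HSP70 and HSP90, and 2 overlapping motifs were listed in its 3′ UTR. At the motif of 31 bases the K+ share was 7.78% and 5.38% on day 0, 15.3% and 13.4% on day 3, then 21.1% and 15.1% on day 7. Li+ shares there were 4.69% and 12.7%, 4.27% and 3.70%, and 7.65% and 8.66% on the same days. K+ exceeded Li+ without overlap on days 3 and 7. The mean log2 odds ratio was 1.95 ± 0.09 (SD, n = 2) on day 3 and 1.29 ± 0.56 on day 7. At the motif of 26 bases, which starts at the same base and ends 5 bases earlier, the mean was 0.58 ± 0.60 on day 3 and 0.51 ± 0.73 on day 7. In day 7 replicate 2 this shorter motif had 4.69% in K+ and 4.71% in Li+, the 1 case among the 11 on day 7 where K+ was not above Li+.

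Prrc2a, a large proline-rich coiled-coil protein that binds RNA, had the highest mean odds ratios of the group on days 3 and 7, from few stops. At its motif of 25 bases the K+ counts for day 0 were 34 stops of 183 reads and 1 of 94, for day 3 they were 5 of 21 and 12 of 60, and for day 7 they were 11 of 67 and 18 of 131. In Li+ the counts were 1 of 99 and 12 of 74 for day 0, 5 of 149 and 1 of 35 for day 3, and 5 of 260 and 1 of 142 for day 7. Replicate 1 of day 0 thus resembled the later days, with 18.6% in K+ and 1.01% in Li+, while replicate 2 was the mirror image, with 1.06% and 16.2%. The mean log2 odds ratio was 2.85 ± 0.40 (SD, n = 2) on day 3 and 3.59 ± 0.50 on day 7, and the spread on day 0, 0.14 ± 5.35, was wider than any difference between days. On day 7 this motif ranked 1 of 107, the overlapping Prrc2a motif 2 and Acads 3.

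Acads, the short-chain acyl-CoA dehydrogenase that starts mitochondrial oxidation of short fatty acids, had low coverage and steady replicates. Its K+ share was 5.07% and 3.70% on day 0, 12.8% and 9.62% on day 3, then 20.1% and 17.2% on day 7. The Li+ share was 6.36% and 6.67% on day 0, 2.47% and 0 of 27 reads on day 3, which allows up to 11.1%, and 4.40% and 5.26% on day 7. The listed K+ and Li+ shares did not overlap on day 3 or day 7, and K+ was the lower in both samples of day 0. On day 3 the separation is not secure, since the 11.1% allowed for Li+ exceeds the K+ share of 9.62%. The mean log2 odds ratio was 2.57 ± 0.15 (SD, n = 2) on day 3 and 2.11 ± 0.42 on day 7. The day 3 mean rests on 4 Li+ stops of 189 reads in both samples together, and on the pseudocount in the sample with 0.

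Atic carries out the last steps of de novo purine synthesis. Its K+ share was 9.62% and 3.81% on day 0, 22.0% and 11.2% on day 3, then 22.8% and 11.5% on day 7. In Li+ it was 6.11% and 12.4%, then 8.30% and 2.22%, then 11.2% and 8.46%. Replicate 1 of each day had the higher K+ share, and on day 7 the lower K+ value, 11.5%, was close to the higher Li+ value, 11.2%. The mean log2 odds ratio was 1.98 ± 0.48 (SD, n = 2) on day 3 and 0.85 ± 0.53 on day 7.

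Pdap1, which binds platelet-derived growth factor A, had 2 overlapping motifs. The motif of 27 bases had K+ shares of 10.0% and 3.96% on day 0, 25.4% and 13.1% on day 3, then 24.8% and 16.4% on day 7. Li+ shares were 8.11% and 14.5%, 3.87% and 3.85%, and 10.2% and 7.28%. All 4 K+ values of days 3 and 7 lay above all 4 Li+ values of those days. Mean log2 odds ratios were 2.41 ± 0.91 (SD, n = 2) and 1.42 ± 0.16. At the motif of 21 bases, nested in the first, they were 1.35 ± 1.11 and 0.57 ± 0.11, and the K+ and Li+ ranges overlapped on both days.

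Csnk2a1 encodes a catalytic subunit of casein kinase 2, a kinase with many substrates. At its motif of 25 bases the K+ share was 8.76% and 3.23% on day 0, 27.1% and 20.3% on day 3, then 22.4% and 7.62% on day 7. The Li+ share was 6.76% and 16.0%, 4.17% and 5.26%, and 6.96% and 4.30%. At the motif of 19 bases K+ was the lower cation in both samples of day 0, with 4.23% and 4.69% against 9.35% and 12.5%. It was the higher on day 3, with 22.0% and 11.8% against 5.68% and 5.97%, and on day 7, with 15.5% and 7.73% against 6.51% and 7.50%. The second day 7 sample differed by 14 stops of 181 reads in K+ against 12 of 160 in Li+. Replicate 2 of day 0 held only 64 K+ reads and 48 Li+ reads at this motif.

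**Figure D1:**
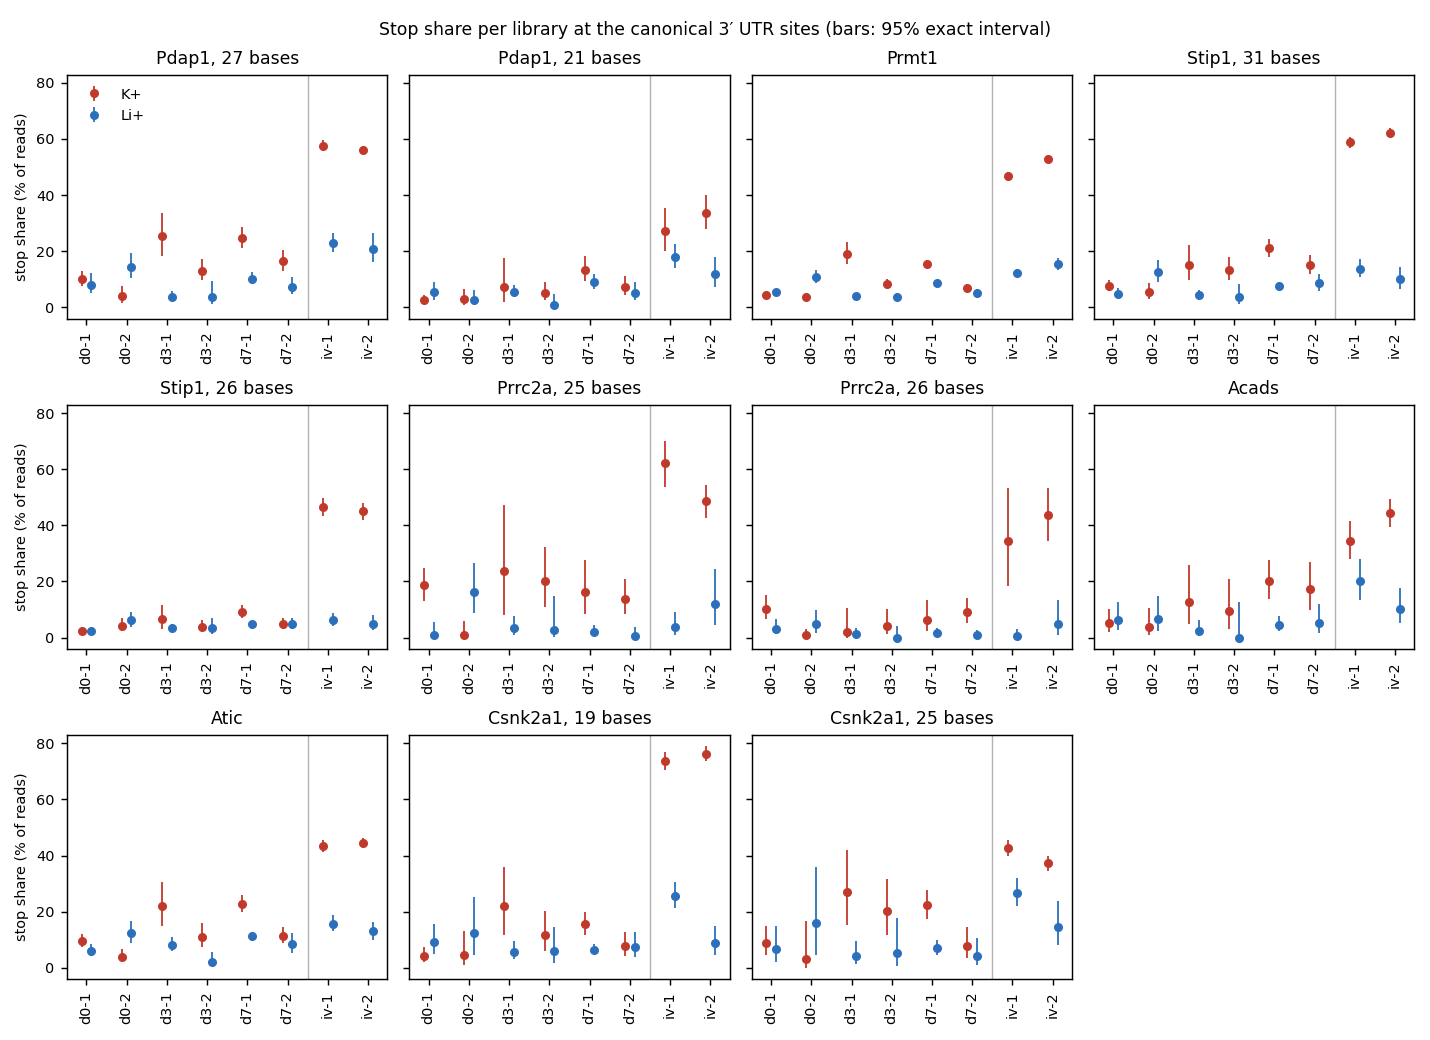
Stop share in percent of reads (vertical axis) at each of the 11 canonical 3′ UTR motifs for the 6 in-cell samples and the 2 in vitro tables (horizontal axis, d0-1 is day 0 replicate 1 and iv-1 is in vitro replicate 1), in K+ (red) and Li+ (blue), with 95% exact Clopper-Pearson intervals that cover counting error only. K+ lies above Li+ in every panel on day 3 and in both in vitro tables, and below it at 10 of 11 motifs in day 0 replicate 2.

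The odds ratios of the 11 motifs moved with those of the other canonical 3′ UTR motifs of the same sample. The median of the other motifs was -0.19 and -1.24 on day 0, 1.93 and 0.96 on day 3, then 1.08 and 0.19 on day 7. The median of the 11 was 0.32 and -1.68, 2.22 and 1.93, and 1.53 and 0.79. Above the sample's median of other motifs stood 7 and 3 of the 11 on day 0, 7 and 10 on day 3, then 8 and 9 on day 7. Pdap1 at 21 bases and Stip1 at 26 bases fell below it in several samples, and ranked 70 and 87 of 107 in the mean of days 3 and 7.

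**Figure D2:**
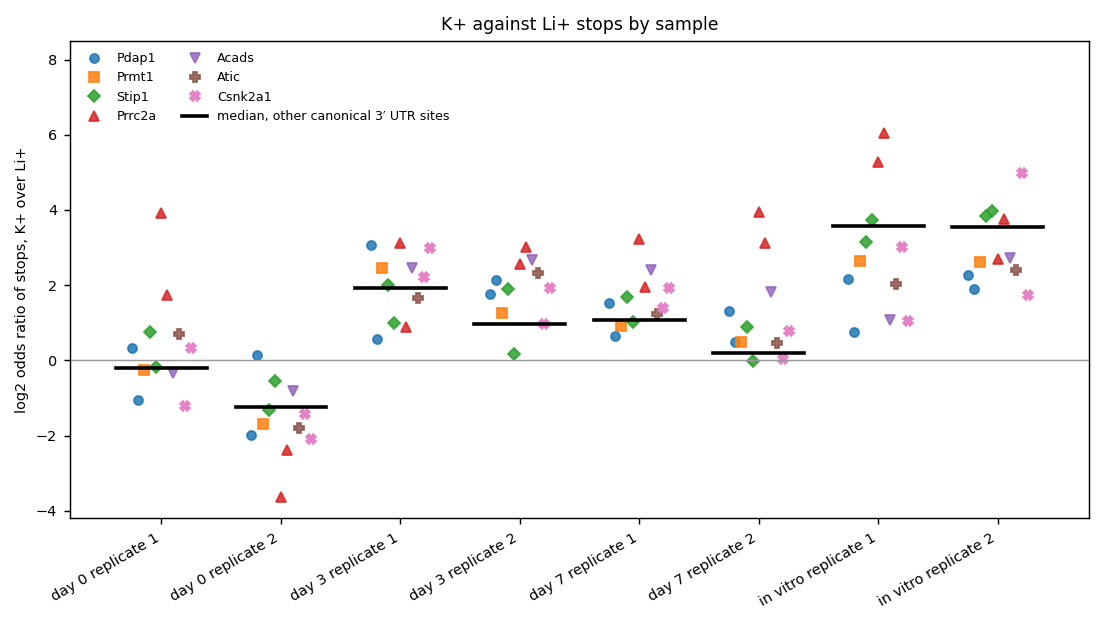
Log2 odds ratio of stops, K+ over Li+ (vertical axis, pseudocount 0.5), in each sample (horizontal axis) for the 11 motifs, marked by gene, with the median of the other canonical 3′ UTR motifs of that sample as a black bar. The markers follow the bar, which is at -1.24 in day 0 replicate 2, 1.93 in day 3 replicate 1 and 0.19 in day 7 replicate 2.

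In limma's test of K+ against Li+, on 847 sites with 20 or more reads in all 12 in-cell libraries, 0% of sites passed an adjusted p of 0.05 on day 0, day 3 or day 7. Unadjusted p-values under 0.05 numbered 62, 126 and 48. The change of the odds ratio from day 0 to day 7 gave 0 calls as well, with 86 unadjusted. With a pseudocount of 1 the day 7 test gave 1 call, with day 3 fitted alone 13 of 965 sites passed, and exchanging K+ and Li+ in day 0 replicate 2 gave 1 call for day 0. The day to day pattern of the 11 motifs is therefore a description of 2 samples per day, and the counts of K+ above Li+ are not backed by calls in the main fit.

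Within the 4 genes that have a pair of overlapping canonical motifs, the stop nearer the 3′ end of the transcript, which reverse transcriptase meets first, had the higher odds ratio in most samples of days 3 and 7. The stops lie 4 bases apart in Stip1, 5 in Pdap1 and 7 in Prrc2a and Csnk2a1, and the reads are shared. In the 4 samples of days 3 and 7 the outer stop was the higher in 4 of 4 for Stip1 and Csnk2a1 and in 3 of 4 for Pdap1 and Prrc2a. In day 0 replicate 2 the outer stop was the lower in all 4 genes, with outer minus inner log2 odds ratios of -2.11 for Pdap1, -0.78 for Stip1, -1.26 for Prrc2a and -0.66 for Csnk2a1. The outer K+ share was above the inner one in 6 of 6 in-cell samples for Stip1, Pdap1 and Prrc2a, and in 4 of 6 for Csnk2a1. In vitro the inner stop had the higher odds ratio in both replicates for Stip1 (outer minus inner -0.58 and -0.11), Prrc2a (-0.78 and -1.06) and Csnk2a1 (-1.98 and -3.24), and the outer stop for Pdap1 (1.41 and 0.37). The K+ shares alone gave another order for Stip1 and Prrc2a, whose Li+ shares were also higher at the outer stop. K+ shares were 58.8% and 62.1% at the outer and 46.6% and 44.9% at the inner stop of Stip1, but 42.8% and 37.3% at the outer and 73.8% and 76.3% at the inner stop of Csnk2a1.

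**Figure D3:**
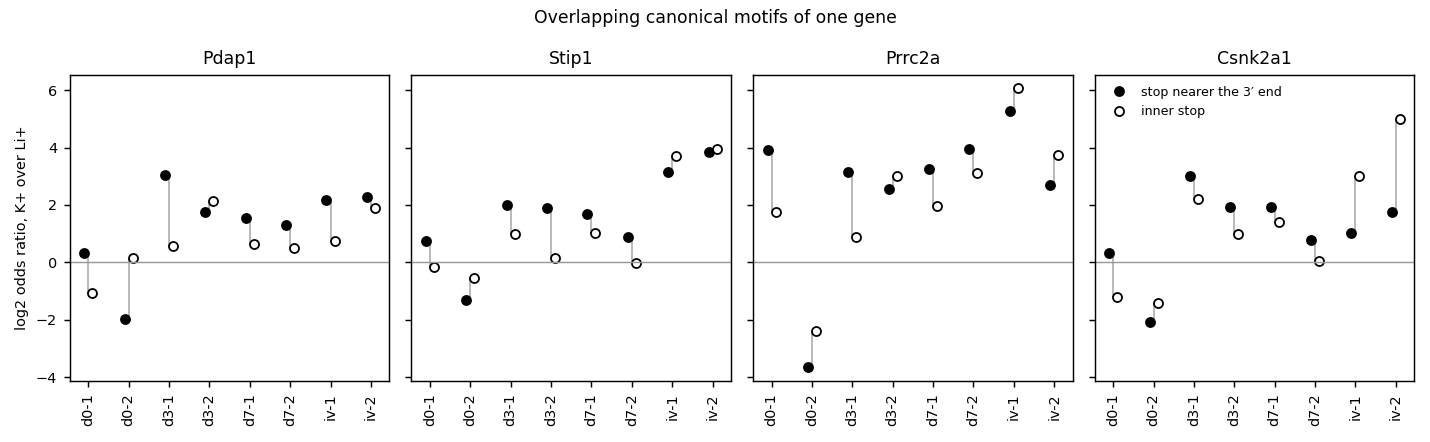
Log2 odds ratio, K+ over Li+ (vertical axis), at the outer stop, nearer the 3′ end (filled), and the inner stop (open) of the overlapping canonical motifs of Pdap1, Stip1, Prrc2a and Csnk2a1 in each sample (horizontal axis). On days 3 and 7 the filled marker is the higher in 4 of 4 samples for Stip1 and Csnk2a1 and in 3 of 4 for the other genes. In day 0 replicate 2 the open marker is the higher for all 4 genes, and in vitro for Stip1, Prrc2a and Csnk2a1.

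The in vitro tables were not part of what chose the genes, but K+ exceeded Li+ at every site there, so that direction says nothing particular about the 7 genes. Mean in vitro K+ shares of the 11 motifs ran from 30.4% ± 4.66 (SD, n = 2) at the shorter Pdap1 motif to 75.1% ± 1.82 at the shorter Csnk2a1 motif. The other canonical 3′ UTR motifs measured in both had a median of 51.4% (291 motifs). Of the 11, the in vitro odds ratio stood above the median of the other canonical 3′ UTR motifs at 3 in replicate 1 and at 4 in replicate 2. Acads had an in vitro K+ share of 39.4% ± 6.89 and lay at percentile 23.5 of 387 motifs, while its day 7 odds ratio ranked 3 of 107. Prrc2a at 25 bases, first on day 7, lay at percentile 55.0.

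On day 7 the 11 motifs had K+ shares of 6.97% to 20.6% as means of 2 samples, against a median of 7.80% over the 291 other motifs. The in vitro share over the day 7 share was 2.11 for Acads, 2.56 for Atic, 2.76 for the longer Pdap1 motif, 4.44 for Prmt1 and 6.57 for the shorter Stip1 motif. The median of the other motifs was 6.53. Since the day 7 K+ share chose the genes, this ratio is given without a test.

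The 12 sites that lie apart from the canonical 3′ UTR motifs comprise 7 in the coding sequence of Prrc2a, 3 overlapping ones in the 5′ UTR of Prmt1, and 1 each in the 3′ UTRs of Stip1 and Atic. They were not chosen on their values in cells, but all listed sites were chosen on in vitro data or data like them. In all, 13 of the 25 sites had 20 or more reads in each of the 12 in-cell libraries, the 11 canonical motifs among them. In day 7 replicate 1 the K+ share was above the Li+ share at 10 of the 12 sites apart, and in day 7 replicate 2 at 3 of the 10 with 20 reads in both cations, against 65.8% and 41.6% of all other sites. Of these 12, Stip1 alone had a site with enough reads for the in-cell test, a bulged motif at chr19:7021017-7021043. Its K+ share was 2.49% and 2.37% on day 0, 3.74% and 2.49% on day 3, then 8.98% and 4.75% on day 7, against 2.23% and 2.90%, 3.25% and 0.91%, and 5.05% and 3.85% in Li+. K+ was above Li+ in 5 of 6 samples. By limma the log2 odds ratio was -0.04 ± 0.54 (SE) on day 0, 0.52 ± 0.57 on day 3 and 0.59 ± 0.51 on day 7, with Benjamini-Hochberg adjusted p of 0.992, 0.695 and 0.989. Of the overlapping canonical motifs 191 bases downstream in the same 3′ UTR, the one of 31 bases had 1.92 ± 0.47 on day 3 and 1.32 ± 0.40 on day 7 in the same fit. The one of 26 bases had 0.50 ± 0.60 and 0.53 ± 0.52, close to the bulged motif.

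The 3 overlapping 5′ UTR sites of Prmt1 differed from each other. At the bulged motif, chr7:44986324-44986354, the K+ share was 5.13% and 5.00% on day 0 and 7.33% and 4.39% on day 7, and the Li+ share 10.7% and 5.56%, then 3.73% and 5.80%. K+ was above Li+ in 1 of the 2 day 7 samples. The motif of 24 bases had 2.79% and 2.35% in K+ on day 7 against 0.74% and 0 of 62 reads in Li+, which allows up to 4.84%, so K+ was the higher in both, from 5 and 2 stops. The motif of 60 bases had 20.6% and 5.88% in K+ against 17.4% and 4.35% in Li+, again higher in both but with overlapping ranges. The best covered of these 5′ UTR sites held 2.48% to 10.6% of the reads at the 3′ UTR motif of the same gene in cells. In the coding sequence of Prrc2a, reads at the best covered site came to 5.66% to 48.5% of those at the 3′ UTR motifs in cells, but to 373% and 531% in vitro. The long-loop site of Prrc2a, chr17:35154550-35154576, had K+ shares of 87.6% and 90.2% in vitro and 14.8% and 4.00% on day 7, where Li+ had 4.96% and 9.30%. The other 6 coding sites of Prrc2a held 0 to 266 reads per sample in cells, too few for the in-cell test.

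The 2-quartet motif of Atic, chr1:71578760-71578782, held 47 to 514 reads per sample in cells. On day 7 it had 7.29% and 1.52% in K+ and 4.35% and 7.69% in Li+, so the replicates differed in direction. Both remaining sites overlap a chosen motif and share its reads. The 2-quartet motif of 14 bases inside the Csnk2a1 motif had K+ above Li+ in 1 of 6 in-cell samples, with 0% in K+ in both samples of day 3, which allows up to 12.5% and 3.09%, against 2.40% and 1.92% in Li+. The bulged motif of 23 bases in Acads had 10.5% and 10.5% in K+ on day 3, against 0% and 11.1% in Li+, and 12.3% and 3.23% on day 7, against 4.21% and 0%. Its Li+ shares of 0% allow up to 5.56% on day 3 and 8.82% on day 7. Neither site followed the canonical motif it overlaps in all samples.

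K+ stop shares of the in vitro tables against the day 7 cells could be compared at all 12 of these sites. Since the sites were listed on in vitro data or data like them, a higher K+ share in vitro was favoured in advance. The p-values here are thus no independent test of that direction. The log2 odds were higher in vitro at 12 of 12, by 2.33 to 6.49 with a median of 3.36 (limma, highest adjusted p 0.00869). Of all 3497 sites tested, 99.3% passed in that direction, and their median difference was 4.30. The call is thus shared by nearly all sites, and only the sizes differ between sites. The largest was at the long-loop Prrc2a site, 6.49 ± 0.64 (SE), and the smallest at the bulged 5′ UTR site of Prmt1, 2.33 ± 0.53. In the same fit, given as a description, the canonical 3′ UTR motifs differed by 1.49 to 4.51 with a median of 2.74.

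**Figure D4:**
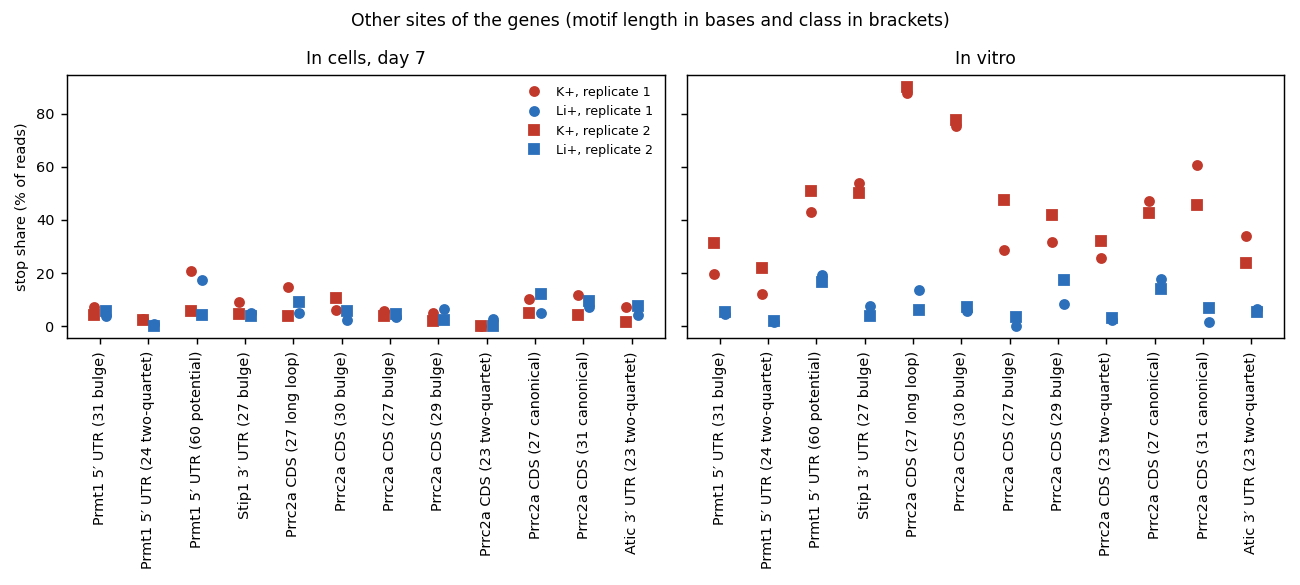
Stop share in percent of reads (vertical axis) at the 12 other sites of the genes (horizontal axis, with region, motif length and class), in day 7 cells (left) and in vitro (right), in K+ (red) and Li+ (blue), with circles for replicate 1 and squares for replicate 2. In vitro K+ is above Li+ at 12 of 12 sites, up to 90.2%, and in day 7 cells both K+ values lie above both Li+ values at the Prmt1 site of 24 bases and the Prrc2a site of 30 bases and overlap or lie lower at the other sites.

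The amount of RNA was taken as the reads of both cations at the best covered site of a gene. For all 7 genes this was a canonical 3′ UTR motif. The choice of the genes does not name coverage, but it was made at these same motifs. All 11 had 20 or more reads in each in-cell library, as had 96 of the other 589. Coverage may therefore have entered the choice, and this was not tested. In bulk samples, fewer cells of a type and less RNA per cell cannot be told apart. Of 10 fibroblast markers 2 were measured, with 235 and 30 summed reads in the day 0 samples and 813 and 329 in the day 7 samples, not scaled for depth. The scaled libraries held 1428980 and 503631 reads on day 0, and 3762160 and 1359780 on day 7. From day 0 to day 7 Col1a1 rose and Fn1 did not pass (0.71 ± 0.47, log2, SE), and their part in the results was not tested. For Stip1 the level was 1290 and 1334 for day 0, 1025 and 1042 for day 3, and 562 and 688 for day 7, in reads per 1000000 scaled reads. The days did not overlap. The change from day 0 to day 7 was -1.08 ± 0.25 (log2, SE) with an adjusted p of 0.0242 in limma-voom, and the median over all 2389 genes tested was 0.57. Stip1 was the 1 gene of the 7 that passed, and 18.4% of all genes did. Its adjusted p was 0.172 with scaling by total reads, 0.0896 with Li+ reads alone, 0.0773 without day 0 replicate 2, 0.217 without day 7 replicate 1, 0.067 without day 7 replicate 2 and 0.0564 with the day 7 replicate numbers crossed as a block.

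The other 6 genes did not pass between day 0 and day 7. Prmt1 stood at 2320 and 3048 for day 0, 3148 and 3438 for day 3, and 1920 and 2293 for day 7 on the same scale, and its day 0 and day 7 ranges do not overlap, with an adjusted p of 0.367 by limma-voom. Atic was at 873 and 1150, 666 and 836, and 601 and 560, with a log2 change of -0.78 ± 0.27 and an adjusted p of 0.078. Acads was at 174 and 310, 228 and 157, and 103 and 134, with -0.94 ± 0.37 and 0.0997. Pdap1 was at 558 and 907, 736 and 840, and 370 and 532, with -0.67 ± 0.33 and 0.163. Prrc2a was at 281 and 737, 367 and 361, and 146 and 353, with -0.99 ± 0.54 and 0.201, and its day 0 samples differed from each other by more than the means of the days did. Csnk2a1 was at 279 and 222, 304 and 317, and 287 and 251, with 0.09 ± 0.27 and 0.832.

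Between day 0 and day 7 the log2 difference was below 0 for 6 of the 7 genes, with a median of -0.78 against 0.57 over all genes, of which 818 of 2389 were below 0. The 7 genes were well read on day 0. All genes include some with few reads there, such as the early differentiation markers with 26 and 0 summed reads. These medians, and those between day 3 and day 7 below, thus do not compare genes of like depth. Without day 0 replicate 1, which leaves day 0 to replicate 2 alone, limma-voom adjusted p-values fell below 0.05 for Atic (0.0389), Prrc2a (0.023), Acads (0.0217) and Pdap1 (0.0422) too, and 919 of 2335 genes passed. Without day 0 replicate 2, 236 of 2410 genes passed in limma-voom and none of the 7 did (lowest adjusted p 0.0773 for Stip1). The log2 differences were then -1.05 for Stip1, -0.59 for Atic, -0.58 for Acads, -0.34 for Prrc2a, -0.33 for Pdap1, -0.15 for Prmt1 and -0.06 for Csnk2a1. Between day 3 and day 7 it was below 0 for 7 of 7, with a median of -0.71 against 0.33 and 891 of 2389 genes below 0, and none passed where 12.6% of all genes did (limma-voom, lowest adjusted p 0.108 for Stip1). Their unadjusted p was under 0.05 for Stip1 (0.0197), Pdap1 (0.0381) and Prmt1 (0.0407). Between day 0 and day 3 none passed either, as for all but 2 of the genes tested (0.0837%), and no unadjusted p of the 7 was under 0.05. Both of these comparisons share samples with the first.

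**Figure D5:**
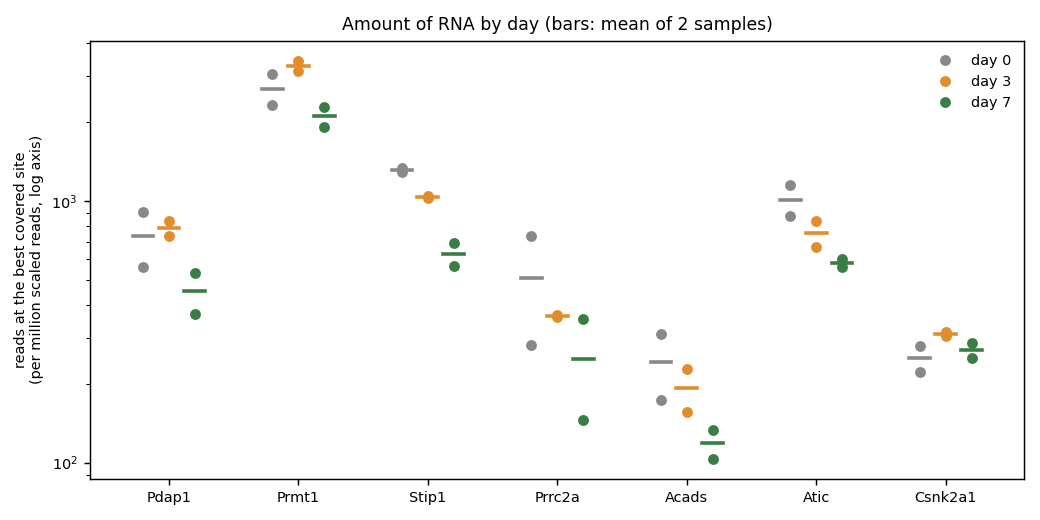
Reads at the best covered site per 1000000 scaled reads (vertical axis, log scale) for the 7 genes (horizontal axis) on day 0, day 3 and day 7, with 1 point per sample and a bar at the mean of 2 samples. Stip1 goes from 1290 and 1334 on day 0 to 562 and 688 on day 7, while Csnk2a1 stays between 222 and 317.

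Few partners of these genes are listed in the tables. Of 15 HSP70 and HSP90 co-chaperone genes with their chaperones, 12 had sites, and of 13 tested entries from day 0 to day 7, 1 rose and 1 fell. The one that rose was an entry of Ahsa1, the activator of the HSP90 ATPase, by 3.61 ± 0.95 (log2, limma-voom adjusted p 0.0381), while a second Ahsa1 entry had 0.09 ± 0.32. The one that fell was Stip1. Prmt1 was the only listed gene of 10 arginine methyltransferase genes, Acads of 18 acyl-CoA dehydrogenase and beta-oxidation genes, and Pdap1 of the 5 PDGF genes. Of 13 purine synthesis genes, Atic, Gart and Adss had sites, and 0 of 3 passed. Prrc2b, at 0.33 ± 0.31, and Prrc2c, at 0.97 ± 1.13, did not pass either, nor did Csnk2a2, at 1.92 ± 1.55.

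By the rule for likeness, the other genes with the highest value of the lowest of 6 per-sample log2 odds ratios at a canonical 3′ UTR motif included Prkaca (-0.05), Ptbp1 (-0.07), Jup (-0.27) and Taf15 (-0.39), out of 96 motifs in 79 genes. None of the 96 had K+ above Li+ in all 6 samples, and neither had any of the 11. Leaving out day 0 replicate 2, 6 of the 11 and 22.9% of the 96 had K+ above Li+ in the other 5 samples. In all 4 samples of days 3 and 7 it was above at 10 of the 11 and at 53.1% of the 96. The rule ranks by the lowest sample only, so its genes need not resemble the 11 on days 3 and 7. Ptbp1, a splicing regulator, had odds ratios of 2.02 and 3.15 on day 3 and 0.33 and 0.54 on day 7.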

How the data were processed

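DMS-treated embryonic stem cells were measured on days 0, 3 and 7, with 2 samples per day and, for day 7, in vitro tables. The submitters' processing notes name cutadapt, STAR and SAMtools and the builds GRCm38.p6 and mm10. Neither versions nor alignment settings are given in the sources used here. The deposited tables hold, per the file headers, raw counts of coverage and stops per site and cation. A listed 0 stands for at most 5 reads, since no lower coverage than 6 is listed.

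Stop odds (log2, pseudocount 0.5) were fitted in limma 3.58.1 (R 4.3.3) with beta-binomial weights where every library had 20 or more reads, and coverage with limma-voom after trimmed-mean (TMM) scaling, for genes with 10 reads at the median library size in 2 libraries and 15 in all. A call needs an adjusted p (Benjamini-Hochberg) under 0.05. Each record spans 2 lines of the deposited files, and limma took the place of a negative binomial count test for that reason of record keeping. The first estimate of overdispersion was too low, and after its counts were seen (0 calls of K+ against Li+ on each day) it was replaced by one from sites with at least 5 expected stops, which made no difference to those calls. Both fits were tested on simulated data. Intervals are 95% Clopper-Pearson intervals, and a share of 0 allows 3 counts of the total; both cover counting error only.

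Members and lists were chosen with earlier results of these data known. Genes named besides the 7 came from fixed lists, or were among the 5 most alike at a canonical 3′ UTR motif with 20 reads in all 12 libraries; a few items are not reported here. K+ and Li+ libraries of a sample are paired by the sample, but the main fit of stop odds held no sample term. The pairing entered only in the replicate block of that fit, which gave 0 calls of K+ against Li+ on each day. Replicate numbers were not taken to pair the days. Deviations of the same number correlated at 0.19, -0.13 and -0.11 in log2 coverage (1701 genes), which does not settle whether they do. Alternatives covered pseudocount, read minimum, weights, scaling, filter, block and each sample left out.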

Additional observations from a re-analysis of the deposited data

Results flagged for a closer look

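At 6 sites of Prmt1, Stip1, Acads and Csnk2a1, K+ minus Li+ stop shares went one way in both samples of day 0 and the opposite way in both samples of a later day. At the canonical motifs among them the later direction is what chose the genes. Over the other canonical 3′ UTR motifs, K+ was below Li+ in both samples of day 0 at 54 of 156. It was above in both at 81 of 105 on day 3 and at 177 of 334 on day 7. Over all other sites these counts were 408 of 1268, 453 of 952 and 918 of 3022. The difference between the days was not tested beyond the change from day 0 to day 7, in which 0 of 847 sites passed in limma (86 with an unadjusted p under 0.05). From day 0 to day 3 the mean of K+ minus Li+ rose by 13.9 percentage points at the canonical motif of Prmt1, from -4.03 to 9.88, by 2.84 at the motif of 26 bases of Stip1, from -1.06 to 1.79, by 12.1 at the canonical motif of Acads, from -2.13 to 9.96, and by 17.6 at the motif of 19 bases of Csnk2a1, from -6.47 to 11.1. Up to day 7 it rose by 8.30 points at Prmt1, by 16.0 at Acads and by 11.1 at Csnk2a1.

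The other cases have few reads. At the 5′ UTR motif of 24 bases of Prmt1 the rise to day 7 was 8.95 points, with as few as 11 reads in a library. At the bulged motif of Acads that overlaps the canonical one it was 8.96 points, with as few as 25 reads. In all 9 differences both samples of day 0 had K+ below Li+, and 1 of them is day 0 replicate 2, where K+ was below Li+ at most other canonical 3′ UTR sites too. With K+ and Li+ exchanged in that sample, 0 of the 9 kept 1 direction in both samples of day 0. That outcome was fixed by how the 9 were picked, so it tests nothing.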

How the results depend on the processing

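The number of canonical 3′ UTR motifs with K+ above Li+ was 0 on day 0, 2 with the replicates summed, 6 with K+ and Li+ exchanged in day 0 replicate 2, and 1 to 6 with 1 sample left out. For day 3 and day 7 it stayed at 10 or 11 of 11 under each alternative run. Calls of K+ against Li+ numbered 0 on day 0, day 3 and day 7 in limma, with 1 on day 0 after the exchange, 13 for day 3 fitted alone and 1 on day 7 with a pseudocount of 1. For the change from day 0 to day 7 they were 0 to 3 with 1 sample left out. The in vitro comparison gave 3473 calls, and 1899 with a minimum of 50 reads, where fewer sites were tested.

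For the RNA amount, day 7 against day 0 gave 439 calls, with 290 under a replicate block, 182 with the day 7 numbers crossed (chosen after seeing the data) and 5 to 919 with 1 sample left out. Day 3 against day 0 gave 2, with 1 from Li+ reads alone, 0 under the replicate block and 0 to 197 with 1 sample left out. Day 7 against day 3 gave 302, with 172 from Li+ reads alone, 135 with crossed numbers and 0 to 419 with 1 sample left out. The cause of these shifts was not tested. The replicate block changed no call of the 7 genes, while with the numbers crossed Stip1 lost its call.

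Signs turned for uncalled values only. The bulged Stip1 motif had 0.185 on day 0 after the exchange, and -0.27 to 0.133 with 1 sample left out. Csnk2a1 ran from -0.0594 to 0.267 with 1 sample left out for day 7 against day 0 (-0.0559 without day 0 replicate 2), and had 0.0777 with total counts for day 7 against day 3. Prmt1 had 0.146 with total counts for day 7 against day 0. For day 3 against day 0 Prrc2a had 0.0718 with Li+ reads alone and -1.02 to 0.373 with 1 sample left out, Acads -0.687 to 0.163 (0.0177 without day 3 replicate 2), and Pdap1 -0.209 to 0.494. A lone sample was assumed to vary like the other groups. In the in vitro comparison 5 single values lost their call with 1 in vitro table left out.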
